A study of Mus musculus with 8 samples.

Results

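The TNF receptor superfamily genes described here are 10 receptors through which T cells receive costimulatory or death signals: *Tnfrsf4* (OX40), *Tnfrsf8* (CD30), *Tnfrsf9* (4-1BB), *Tnfrsf18* (GITR), *Cd27*, *Tnfrsf14* (HVEM), *Tnfrsf25* (DR3), *Fas*, *Tnfrsf1a* (TNFR1) and *Tnfrsf1b* (TNFR2). They were taken by symbol from the annotation the authors counted against (GRCm38, Ensembl release 96), and all 10 were present among the 55536 genes of the count files. Their mRNA was compared between 4 GC7-treated (GC7) and 4 mock-treated (Mock) cultures of mouse CD8 T cells. All donors carried the OT-1 T cell receptor transgene, which recognises the ovalbumin peptide SIINFEKL, on a Rag-1KO background of C57BL/6 mice with CD45.1 or CD45.2 alleles, and were 5 to 12 weeks old. Lymph node cells of both groups received 100 nM peptide for 2 days and then 20 ng/mL IL-2 for 2 days. During those last 2 days the GC7 group also received 10 µM GC7, a spermidine analogue that blocks the enzyme DHPS and so the hypusine modification of the translation factor eIF5a, and the Mock group received its acetic acid vehicle. Each group is a population expanded in culture from transgenic cells of a single specificity, and GC7 is a drug, so an effect of lost hypusination and an effect of the drug on other targets cannot be told apart in these libraries. The methods call the cultures biological replicates and do not say whether each came from its own mouse, so the p-values measure the spread between these cultures.

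Receptors of this superfamily are membrane proteins that are engaged by trimeric ligands of the TNF family. Costimulatory members such as OX40, 4-1BB, GITR, CD27 and CD30 bind TRAF adaptors, which pass the signal to NF-kB and MAP kinases and favour survival and expansion of activated T cells. Members with a cytoplasmic death domain, among them Fas, TNFR1 and DR3, recruit FADD or TRADD and can start caspase-8-dependent death. Several costimulatory members are low on naive CD8 T cells and are induced by antigen, while CD27 is already present on naive cells.

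Levels are raw read counts per gene expressed as CPM, that is, scaled to a common library total, with TMM factors, which correct for differences in library composition. The libraries held 17528776 to 25284730 counts, and a two-sided exact permutation test of these totals gave p = 0.429, where 0.0286 was the smallest it could give. Mock replicate 2 and GC7 replicate 3 correlated less well with the other libraries of their groups. All 10 CD8 T cell markers passed the filter, while *Cd4* was at 0.410 CPM or less and *Foxp3*, which marks regulatory T cells that also carry GITR and OX40, at 1.15 CPM or less in every library. The 6 CD4 or regulatory T cell markers were not all this low. *Ctla4*, *Ikzf2* and *Zbtb7b* passed the filter, with *Ikzf2* at 33.4 to 59.3 CPM and *Zbtb7b* at 74.8 to 96.2 CPM over all libraries. The summed level of the 10 CD8 T cell markers was 8872 to 10476 CPM in Mock and 5916 to 7756 CPM in GC7 libraries. *Gzmb*, a product of effector cells, was the largest part of it (3968 to 4817 and 1901 to 3440 CPM). Of this list only *Cd8a* was higher in every GC7 library (940 to 1003 CPM) than in any Mock library (679.6 to 743 CPM). Every other marker of the list was lower in every GC7 library than in any Mock library. Among these, *Thy1* was at 1578 to 1769 CPM in Mock and 971 to 1216 CPM in GC7 libraries. *Lck* was at 563.2 to 639.9 and 353.8 to 395.5 CPM. The summed level of the 6 CD4 or regulatory T cell markers, of which *Ctla4* made up most, was 957 to 1019 and 472 to 608 CPM. The part of these shifts in the receptor changes was not tested. In RNA from whole cultures, fewer cells with a transcript and less transcript per cell cannot be told apart.

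Of the 10 receptors, 9 passed the expression filter of more than 3 CPM in at least 4 libraries. At a false discovery rate (FDR) under 0.01, 6 of the 9 tested receptors fell in GC7-treated cells, *Tnfrsf8*, *Tnfrsf4*, *Tnfrsf1b*, *Tnfrsf9*, *Tnfrsf18* and *Cd27*, and 2 rose, *Fas* and *Tnfrsf14*. *Tnfrsf1a* did not pass the test, and *Tnfrsf25* was below the filter. These counts stand against a wide response, since 23.5% of the 11189 genes tested were lower and 23.0% higher by the same criterion. With a change of more than 2-fold required as well, *Tnfrsf8* and *Tnfrsf4* were lower and *Fas* was higher, against 5.31% and 3.17% of all genes tested, or 8.48% in either direction. The median log2 fold change of the 9 receptors was -0.43, compared with 0.02 over all genes tested. The libraries of the groups did not overlap for 8 of the 9, which was also the case for 55.6% of all genes tested.

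**Figure D1:**
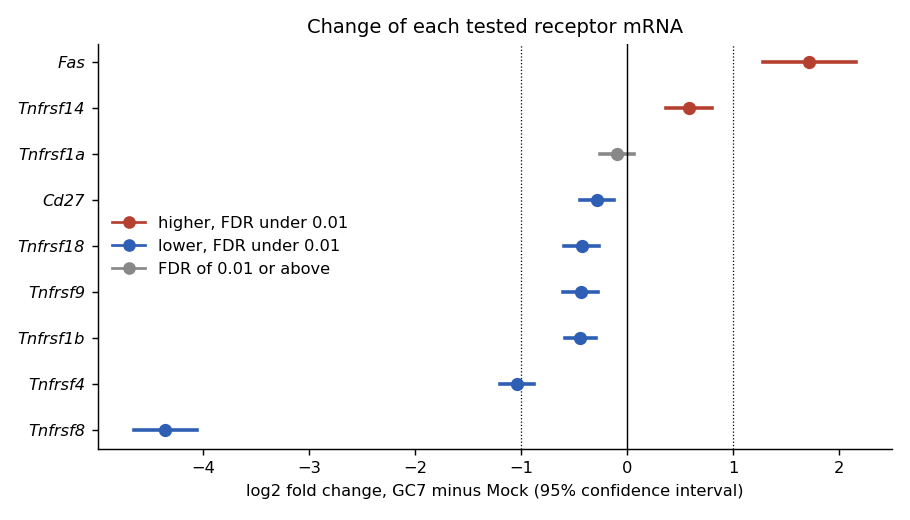
The log2 fold change (GC7 minus Mock) of each of the 9 tested receptors, with points for edgeR's estimate and lines for its 95% confidence interval; dotted lines mark 2-fold changes. *Tnfrsf8* stood far below the other receptors at -4.36, *Fas* was highest at 1.72, and the interval of *Tnfrsf1a*, from -0.26 to 0.07, included 0.

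*Tnfrsf8* encodes CD30, a receptor that appears on activated lymphocytes, and showed the largest change of the 9 (ENSMUSG00000028602, chromosome 4, 145267137 to 145315164). Its level in Mock replicates 1 to 4 was 53.6, 39.8, 52.2 and 53.1 CPM, and in GC7 replicates 1 to 4 it was 2.43, 2.69, 1.84 and 2.59 CPM. Mock replicate 2 was the lowest of its group and still far above every GC7 library. The mean fell from 49.7 ± 6.58 (SD, n = 4) to 2.39 ± 0.379 CPM, 20.6-fold lower, and the log2 fold change was -4.36 ± 0.137 (standard error) with an adjusted p of 1.6e-10 in edgeR's quasi-likelihood test, the test behind every adjusted p given here. Ranked from the lowest log2 fold change, the gene was number 21 of the 11189 tested. Its raw counts were 937 to 1119 per Mock library and 33 to 62 per GC7 library. Every GC7 library was below the filter level, so the gene was tested because of its Mock libraries alone.

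*Tnfrsf4* encodes OX40, which sustains the survival of effector T cells after priming (ENSMUSG00000029075, chromosome 4, 156013843 to 156016612). Mock replicates 1 to 4 had 158.7, 156.5, 153.5 and 143.3 CPM and GC7 replicates 1 to 4 had 76.7, 65.7, 81.6 and 73.1 CPM. The groups lay well apart, with little spread within either. The mean fell from 153 ± 6.79 to 74.3 ± 6.72 CPM, 2.06-fold lower (log2 fold change -1.04, standard error 0.0724, adjusted p = 1.7e-07, edgeR). This change lay next to the 2-fold limit, and the log2 fold change was -0.95 when library totals replaced TMM factors and -0.99 without GC7 replicate 2.

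The other costimulatory receptors of high abundance fell by less. *Tnfrsf9* encodes 4-1BB, an inducible costimulator of CD8 T cells, and was the most abundant of the 10 (ENSMUSG00000028965, chromosome 4, 150914562 to 150946102). Its level was 1177, 1190, 1182 and 1115 CPM in Mock replicates 1 to 4 and 936, 884, 755 and 860 CPM in GC7 replicates 1 to 4. All Mock libraries were above all GC7 libraries, and the decrease was 1.36-fold (log2 fold change -0.44, standard error 0.0745, adjusted p = 2.9e-04, edgeR). *Tnfrsf18*, which encodes GITR, was at 231.9, 285.8, 255.1 and 239.1 CPM in Mock and at 175, 179.5, 202.1 and 193.7 CPM in GC7 replicates 1 to 4. It fell 1.35-fold (log2 fold change -0.43, standard error 0.0772, adjusted p = 4.4e-04, edgeR), close to the change of *Tnfrsf9*. Its exons share 414 bases with *Gm16008*, an antisense gene with 22 to 68 counts per library against 3594 to 6722 for *Tnfrsf18*.

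*Cd27* encodes a costimulator that supports the survival of T cells from priming onwards (ENSMUSG00000030336, chromosome 6, 125232622 to 125237010). Its level was 83.4, 105.9, 95.8 and 91.9 CPM in Mock and 74.8, 75.1, 78.6 and 79.9 CPM in GC7 replicates 1 to 4. The groups were separated by a narrow margin, between Mock replicate 1 and GC7 replicate 4, and the decrease of 1.22-fold was the smallest that passed the test (log2 fold change -0.29, standard error 0.0735, adjusted p = 0.00468, edgeR). The adjusted p lay close to the threshold. By edgeR's test it was 0.0141 without Mock replicate 3, 0.01004 without Mock replicate 4, 0.0171 without GC7 replicate 1 and 0.0165 without GC7 replicate 2, with log2 fold changes of -0.29, -0.31, -0.28 and -0.28. With library totals in place of TMM factors the log2 fold change was -0.19 (adjusted p = 0.0256, edgeR). The exons of *Cd27* share 129 bases with the microRNA gene *Mir8113* on the same strand, which had 0 counts in every library.

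*Tnfrsf14* encodes HVEM, which binds the TNF family ligand LIGHT and also the inhibitory receptors BTLA and CD160 (ENSMUSG00000042333, chromosome 4, 154921933 to 154928563). Unlike the receptors above it was higher in GC7-treated cells, at 13.6, 10.7, 11.9 and 14.4 CPM in Mock and 18, 18.9, 20.1 and 18.8 CPM in GC7 replicates 1 to 4. No Mock library reached the lowest GC7 library, and the rise was 1.5-fold (log2 fold change 0.59, standard error 0.0996, adjusted p = 3.0e-04, edgeR). *Tnfrsf25*, which encodes the death domain receptor DR3, was the least abundant of the 10 in Mock libraries and did not pass the 3 CPM filter. Its 11 to 33 counts per Mock library and 32 to 42 per GC7 library corresponded to 0.956 ± 0.462 and 1.70 ± 0.0889 CPM (SD, n = 4). Mock replicates 2 and 3, at 1.40 and 1.31 CPM, lay closer to the GC7 libraries than Mock replicates 1 and 4, at 0.564 and 0.551 CPM. In a fit without the filter, over 28350 genes, its log2 fold change was 0.80 (standard error 0.27, adjusted p = 0.0131, edgeR). With edgeR's filterByExpr as the filter, over 14517 genes, it was 0.79 (adjusted p = 0.0359, edgeR).

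*Fas* encodes the death receptor for Fas ligand, through which activated T cells can be removed (ENSMUSG00000024778, chromosome 19, 34290666 to 34327772). Mock replicates 1 to 4 had 8.51, 10.6, 9.93 and 8.27 CPM and GC7 replicates 1 to 4 had 23.8, 22.9, 46.3 and 30.6 CPM. Every GC7 library was above every Mock library, and GC7 replicate 3 was the highest. The mean rose from 9.32 ± 1.12 to 30.9 ± 10.8 CPM, a 3.29-fold increase (log2 fold change 1.72, standard error 0.203, adjusted p = 1.6e-05, edgeR). Ranked from the highest log2 fold change, the gene was number 100 of those tested. The spread between GC7 libraries, a coefficient of variation of 35.0%, was the widest of the 9 tested receptors. Without GC7 replicate 3, the log2 fold change of *Fas* was 1.46 (adjusted p = 5.6e-06, edgeR).

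The TNF receptors differed from *Fas* and from each other. *Tnfrsf1a* encodes TNFR1, the death domain receptor for TNF, and was at 22.2, 26.4, 23.6 and 22.6 CPM in Mock and 22.6, 21.8, 21.9 and 22.3 CPM in GC7 replicates 1 to 4. The groups overlapped, and the log2 fold change of -0.10 had a 95% confidence interval from -0.26 to 0.07 (adjusted p = 0.285, edgeR). *Tnfrsf1b* encodes TNFR2, which lacks a death domain and binds TRAF2, and was at 119.8, 108.7, 115.4 and 114.9 CPM in Mock and 91.2, 84.6, 75.7 and 85.5 CPM in GC7 replicates 1 to 4. It fell 1.36-fold without overlap of the libraries (log2 fold change -0.44, standard error 0.0667, adjusted p = 1.1e-04, edgeR), a size like that of *Tnfrsf9* and *Tnfrsf18*.

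**Figure D2:**
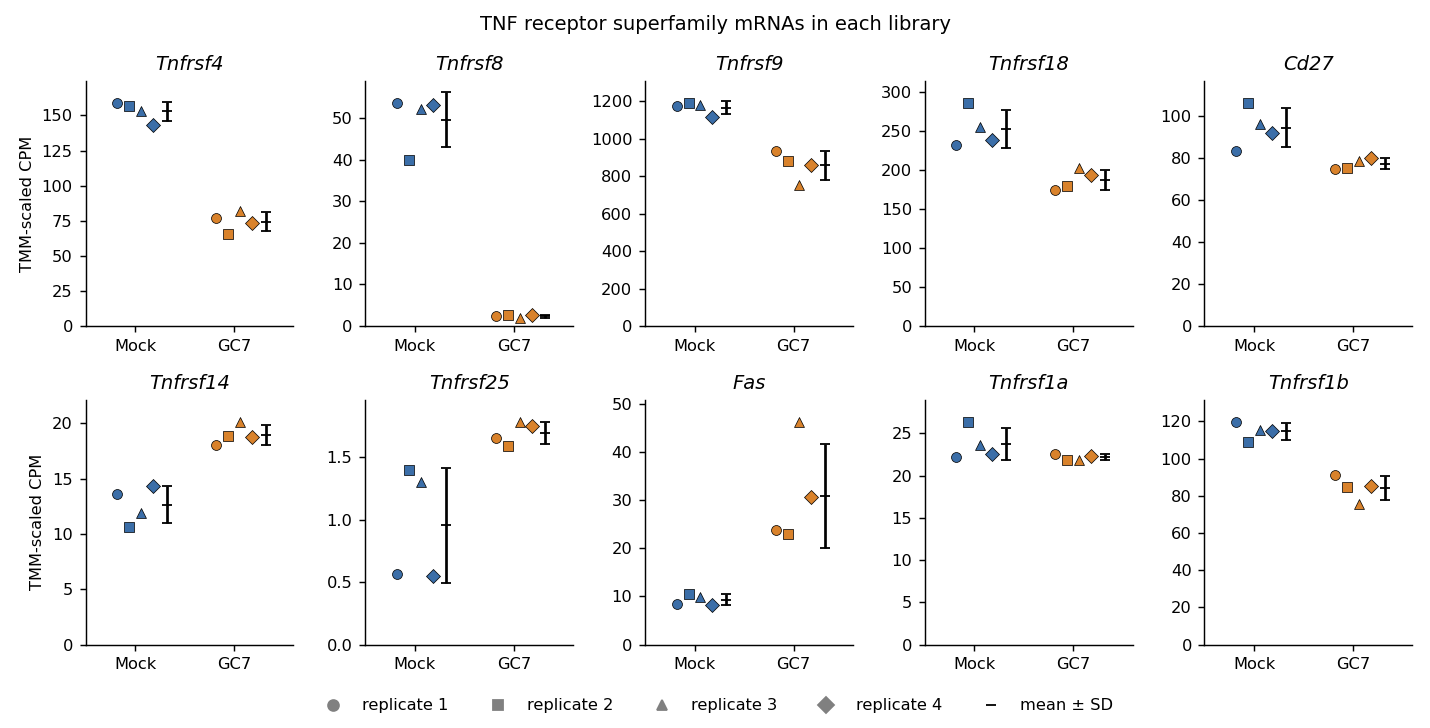
Level of each of the 10 receptors in each library, in TMM-scaled CPM on axes that start at 0; marker shapes give the replicate number and bars the mean ± SD of 4 libraries. *Tnfrsf8* fell close to 0 in all GC7 libraries, *Fas* was spread widely in GC7 libraries with replicate 3 on top, and the libraries of *Tnfrsf1a* overlapped.

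Levels were compared between receptors as CPM per kilobase of merged exons. In Mock libraries the order from highest to lowest was *Tnfrsf9* (428), *Tnfrsf18* (166), *Tnfrsf4* (112), *Cd27* (40.5), *Tnfrsf1b* (30.04), *Tnfrsf8* (14.4), *Tnfrsf1a* (9.14), *Tnfrsf14* (8.80), *Fas* (4.52) and *Tnfrsf25* (0.420 CPM per kilobase). Only *Tnfrsf1a* and *Tnfrsf14* overlapped among neighbours in this order. In GC7 libraries the first 5 places held the same genes in the same order, from *Tnfrsf9* at 315 to *Tnfrsf1b* at 22.1 CPM per kilobase. Below them *Fas* had moved from place 9 to place 6, at 14.98 CPM per kilobase, and overlapped both of its neighbours, *Tnfrsf1b* and *Tnfrsf14*. *Tnfrsf8* had moved from place 6 to place 10, at 0.690 CPM per kilobase, and could not be separated from *Tnfrsf25* at 0.745. The 10 receptors together held 1803 to 1936 CPM in Mock and 1285 to 1422 CPM in GC7 libraries, of which *Tnfrsf9* made up 58.8% to 65.8% in any library.

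For CD30 and OX40, receptor and ligand mRNA moved in opposite directions. *Tnfsf8*, the ligand of CD30, was at 7.64, 7.06, 7.64 and 6.97 CPM in Mock and 65.8, 63.7, 63.4 and 63.7 CPM in GC7 replicates 1 to 4, an increase of 8.75-fold (log2 fold change 3.13, standard error 0.0693, adjusted p = 1.6e-11, edgeR). Per kilobase of exon, the receptor was above its ligand in Mock libraries, 14.4 ± 1.90 against 1.92 ± 0.0961 CPM, and far below it in GC7 libraries, 0.690 ± 0.109 against 16.8 ± 0.296 CPM (SD, n = 4). *Tnfsf4*, the ligand of OX40, rose from 0.660 ± 0.257 to 21.5 ± 5.41 CPM (log2 fold change 5.03, standard error 0.252, adjusted p = 1.0e-08, edgeR), with 9 to 19 counts per Mock library and 371 to 525 per GC7 library. Every Mock library was below the filter level, so *Tnfsf4* was tested because of its GC7 libraries alone. OX40 remained above its ligand in GC7 libraries, at 54.4 ± 4.92 against 11.7 ± 2.94 CPM per kilobase. *Tnfsf9*, the ligand of 4-1BB, was at 4.19 ± 0.709 CPM in Mock and 4.01 ± 0.448 CPM in GC7 libraries and did not pass the test (adjusted p = 0.724, edgeR).

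Partners of HVEM were higher together with it. *Btla* rose 2.72-fold, from 20.6 ± 2.27 to 56 ± 7.01 CPM (log2 fold change 1.44, adjusted p = 2.0e-07, edgeR), and *Tnfsf14*, which encodes LIGHT, rose 1.85-fold, from 3.01 ± 0.357 to 5.58 ± 0.375 CPM (log2 fold change 0.88, adjusted p = 1.0e-04, edgeR). *Cd160* had a log2 fold change of 0.53 (adjusted p = 0.00342, edgeR), and when any 1 of Mock replicates 1, 3 and 4 or GC7 replicates 1, 2 and 4 was left out its log2 fold change was 0.46 to 0.53 and its adjusted p 0.0105 to 0.0143 (edgeR), outside the threshold. *Btla* exceeded HVEM per kilobase in GC7 libraries, at 16.5 ± 2.06 against 13.2 ± 0.614 CPM, but not in Mock libraries, at 6.06 ± 0.669 against 8.80 ± 1.16 CPM. *Fasl*, the ligand of Fas, rose 1.32-fold, from 17.6 ± 1.20 to 23.4 ± 0.231 CPM (log2 fold change 0.41, adjusted p = 4.8e-04, edgeR). Per kilobase *Fas* was below *Fasl* in all Mock libraries, 4.52 ± 0.541 against 9.11 ± 0.621 CPM, while in GC7 libraries the ranges overlapped, 11.1 to 22.4 against 11.9 to 12.2 CPM.

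Of the ligands of the TNF receptors, neither *Tnf* nor *Lta* passed the test. *Tnf* was at 31.5 ± 3.99 CPM in Mock and 28.4 ± 2.81 CPM in GC7 libraries (log2 fold change -0.15, adjusted p = 0.211, edgeR). *Lta*, which encodes lymphotoxin alpha, was at 84.2 ± 6.50 and 97.4 ± 23.9 CPM (log2 fold change 0.21, adjusted p = 0.249, edgeR). GC7 replicate 3, at 61.9 CPM, was the lowest library for *Lta*, and without it the log2 fold change was 0.37 (adjusted p = 0.00113, edgeR). *Ltb*, whose product pairs with lymphotoxin alpha to engage the lymphotoxin beta receptor and not the TNF receptors, fell from 361 ± 62.0 to 260 ± 33.5 CPM (log2 fold change -0.48, adjusted p = 0.00435, edgeR), but its adjusted p was 0.0125 with library totals, 0.0108 without GC7 replicate 1, 0.0129 without GC7 replicate 3 and 0.0107 without GC7 replicate 4. The ligands of DR3, GITR and CD27 did not pass the filter. *Cd70*, the ligand of CD27, had 0 or 1 count per Mock library and 10 to 21 per GC7 library, *Tnfsf15*, the ligand of DR3, had 0 or 1 and 3 to 6, and *Tnfsf18*, the ligand of GITR, had 0 and 0 or 1. In the fit without the filter, *Cd70* (adjusted p = 9.4e-11, edgeR) and *Tnfsf15* (adjusted p = 0.00569, edgeR) were higher in GC7 libraries, and *Tnfsf18* did not pass the test (adjusted p = 0.476, edgeR). For *Fas* that fit gave an adjusted p of 3.1e-59 against 1.6e-05 with the filter (edgeR), at a like fold change. Adjusted p-values of that fit are therefore not on the scale of the filtered fit. With filterByExpr *Cd70* and *Tnfsf15* were not tested. Over the 13 genes of this list, 10 passed the filter, of which 6 rose and 1 fell, against 23.0% and 23.5% of all genes tested, with a median log2 fold change of 0.47.

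**Figure D3:**
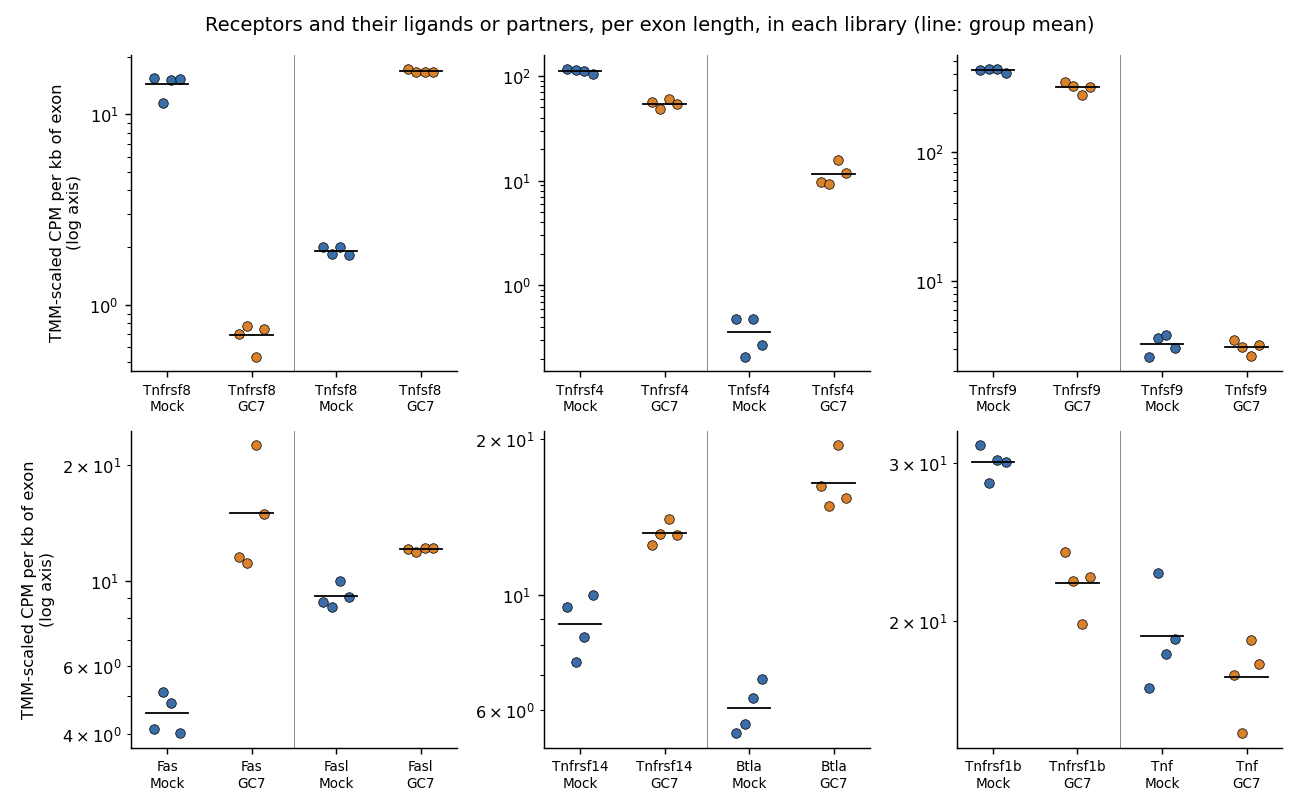
Receptor (left of the grey line) and ligand or partner (right) in each library, in TMM-scaled CPM per kilobase of exon on a log axis, with a line at the mean of 4 libraries. *Tnfrsf8* and *Tnfsf8* exchanged their order between Mock and GC7 libraries, *Tnfsf4* approached *Tnfrsf4* from below, and *Fas* rose to the level of *Fasl*.

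Of the 18 other receptors of the superfamily, 7 were tested and all of them passed the test, 3 higher and 4 lower, against 46.6% of all genes tested in either direction. *Tnfrsf10b*, a mouse receptor for the death ligand TRAIL, was the only one past 2-fold. It was at 15.1, 14.0, 17.4 and 14.3 CPM in Mock and 49.2, 45.3, 51.1 and 46.0 CPM in GC7 replicates 1 to 4, 3.15-fold higher (log2 fold change 1.66, standard error 0.0832, adjusted p = 1.0e-08, edgeR). *Tnfrsf21* (0.82) and *Tnfrsf26* (0.38) were the other genes that rose, and *Tnfrsf13c* (-0.98), *Tnfrsf13b* (-0.56), *Tnfrsf22* (-0.34) and *Relt* (-0.26) fell, all as log2 fold changes. Without Mock replicate 3 or without Mock replicate 4, 4 of these genes passed the test. Those fits called 4615 of 11292 and 4455 of 11288 genes.

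Of the 10 TRAF adaptor genes, whose products costimulatory receptors bind, 3 rose, 1 fell and 6 did not pass the test, so that 4 of 10 changed against 46.6% of all genes tested, with a median log2 fold change of -0.03. *Tank*, a TRAF-binding regulator of NF-kB, rose from 29.2 ± 1.29 to 62 ± 7.03 CPM (log2 fold change 1.08, adjusted p = 3.9e-07, edgeR). *Traf3*, which restrains the alternative NF-kB pathway, rose (log2 fold change 0.62), *Traf4* rose (0.29) and *Traf5* fell (-0.35). *Traf1*, at 136.8 ± 9.33 CPM in Mock and 135 ± 10.3 CPM in GC7 libraries, and *Traf2*, at 30.8 ± 1.79 and 33.4 ± 1.33 CPM, did not pass the test (adjusted p = 0.828 and 0.153, edgeR). With Mock replicate 2 and GC7 replicate 3 both left out, 7 of the 10 passed it, in a fit that called 6402 of 11228 genes.

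Of the 18 death domain complex and caspase genes 8 fell, 6 rose and 4 did not pass the test, against 46.6% of all genes tested past it, with a median log2 fold change of -0.11. Past 2-fold were *Ripk3*, the kinase of necroptosis, which fell from 119.9 ± 7.56 to 49.9 ± 3.01 CPM (log2 fold change -1.27, adjusted p = 2.0e-08, edgeR), and *Tradd*, the adaptor of TNFR1 and DR3, which fell from 39.3 ± 4.37 to 18.8 ± 1.6 CPM (log2 fold change -1.06, adjusted p = 1.3e-06, edgeR). Downstream of Fas, *Casp8* fell (log2 fold change -0.28), as did *Cflar*, which encodes the caspase-8 inhibitor c-FLIP (-0.62), while *Bid*, a substrate of caspase-8, rose (0.42). The adaptor *Fadd* had a log2 fold change of -0.42 and an adjusted p of 0.0106 (edgeR), just outside the threshold. The ubiquitin and kinase relay below the receptors had 4 of 17 genes higher, 3 lower and 10 not past the test (median 0.05). Its share past the test, unlike that of the death domain list, was near the 46.6% of all genes tested. Without GC7 replicate 1 or without GC7 replicate 2, 4 genes of the relay passed. Those fits called 4513 of 11267 and 4545 of 11278 genes. Of the tested proteases that shed receptors or control shedding, *Adam10* (0.39) and *Rhbdf2* (0.35) rose and *Adam17*, which releases the TNF receptors from the cell surface, fell (-0.25), all as log2 fold changes.

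**Figure D4:**
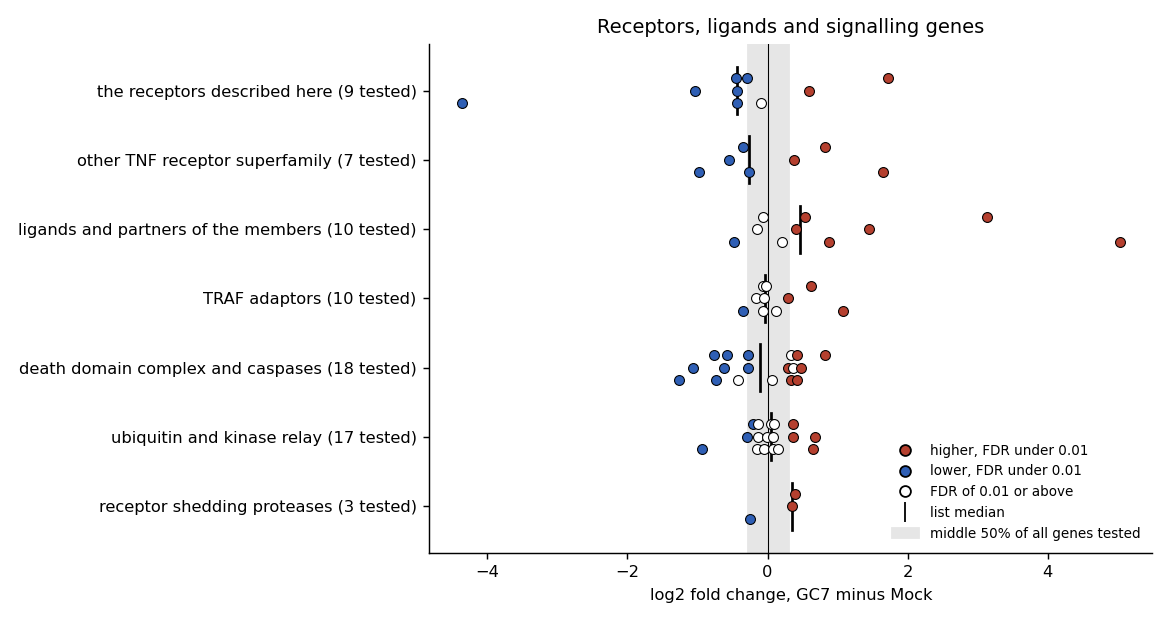
Log2 fold change (GC7 minus Mock) of every tested gene in each list, filled where the FDR was under 0.01; the vertical line in each row is the list median and the grey band the middle of all genes tested, from -0.27 to 0.31. The receptor medians lay below the band's centre and the ligand median above it, and most points of the TRAF adaptors lay inside the band.

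Of the 10 receptor genes 7 lie on chromosome 4, among them *Tnfrsf1b* (145213463 to 145246870) near *Tnfrsf8*, and *Tnfrsf18* (156026164 to 156028895) near *Tnfrsf4*, while *Cd27* and *Tnfrsf1a* lie on chromosome 6 and *Fas* on chromosome 19. The genes on chromosome 4 did not move alike, since *Tnfrsf14* rose there and *Tnfrsf1b* had a log2 fold change of -0.44 where its neighbour *Tnfrsf8* had -4.36. Over all tested genes of chromosome 4, 164 of 688 were higher and 159 lower.

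The sequences before the start sites of the receptor with the largest decrease, of the most abundant receptor and of the receptor with the largest increase are given here so that the genes that moved differently can be read side by side. They are the 250 bases before the RefSeq start in GRCm38.p6, 5′ to 3′ on the strand of the gene, at chr4:145315165-145315414 (minus strand) for *Tnfrsf8*, chr4:150927749-150927998 (plus strand, before the downstream of its listed starts) for *Tnfrsf9* and chr19:34290409-34290658 (plus strand) for *Fas*. The window before the upstream start of *Tnfrsf9* is not printed and had no match to the motifs marked here. Capitals mark matches, on either strand, to the AP-1 motif TGANTCA, the STAT motif TTCNNNGAA or the NF-kB consensus.
Tnfrsf8: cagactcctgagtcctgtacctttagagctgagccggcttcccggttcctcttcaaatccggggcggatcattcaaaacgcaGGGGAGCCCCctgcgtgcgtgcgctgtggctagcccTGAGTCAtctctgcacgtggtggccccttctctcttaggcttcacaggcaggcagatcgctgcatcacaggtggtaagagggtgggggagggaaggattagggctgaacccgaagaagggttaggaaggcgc
Tnfrsf9: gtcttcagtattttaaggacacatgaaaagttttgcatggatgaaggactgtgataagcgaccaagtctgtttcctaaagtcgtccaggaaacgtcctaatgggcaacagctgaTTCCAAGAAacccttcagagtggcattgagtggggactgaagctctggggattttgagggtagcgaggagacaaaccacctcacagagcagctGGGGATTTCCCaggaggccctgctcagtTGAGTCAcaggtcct
Fas: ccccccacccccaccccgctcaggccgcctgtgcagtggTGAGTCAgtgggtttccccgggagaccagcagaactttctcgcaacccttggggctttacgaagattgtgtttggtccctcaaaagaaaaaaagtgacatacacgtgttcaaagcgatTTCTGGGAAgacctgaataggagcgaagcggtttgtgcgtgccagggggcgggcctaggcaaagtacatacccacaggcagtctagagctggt
Of the 12 windows listed for the 10 receptors, 3 held the AP-1 motif, those printed here, each as TGAGTCA, 126 to 132 bases before the start in *Tnfrsf8*, 9 to 15 in *Tnfrsf9* and 205 to 211 in *Fas*, against 6.75% of all 32851 promoter windows of this length. The NF-kB consensus occurred in 2 of the 12 windows, before *Tnfrsf8* and *Tnfrsf9*, against 3.90% of all windows, with overlapping matches in *Tnfrsf9*. The STAT motif occurred in 6 of the 12 windows, those of *Tnfrsf1b*, *Tnfrsf9*, *Tnfrsf25*, *Tnfrsf18*, *Tnfrsf1a* and *Fas*, against 7.02% of all windows. The p53 half-site consensus and the sequence TATAAA had no match in the 12 windows, against 7.13% and 12.4% of all windows. These matches describe the letters of the windows and nothing else. The AP-1 and STAT motifs were found before *Fas*, which rose, and before receptors that fell. The STAT motif also lay before *Tnfrsf1a*, which did not pass the test, and *Tnfrsf25*, which was below the filter. The NF-kB consensus was absent before *Tnfrsf4*, *Tnfrsf1b*, *Tnfrsf18* and *Cd27*, which fell as *Tnfrsf8* and *Tnfrsf9* did. A link between these matches and the changes was not tested.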

How the data were processed

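RNA from 4 Mock and 4 GC7 cultures was sequenced as paired-end reads. The authors deposited raw counts per Ensembl gene, 1 file per library, without normalisation or pooling. Trimming by the authors used Cutadapt (version 2.3), alignment to GRCm38 used STAR (version 2.7.1a), and counting used featureCounts of Rsubread (version 1.6.4). Strand setting and treatment of multiply mapped reads are not given in the sources used here. No receptor described here had a near-identical transcript (at least 200 bases at 90% identity, BLAST version 2.17.0) in another gene apart from the antisense *Gm16008* over *Tnfrsf18*.

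All 55536 identifiers matched GENCODE M21 (Ensembl 96), from which symbols, positions and merged exon lengths came. The filter required over 3 CPM in 4 or more libraries and left 11189 genes. GC7 was compared with Mock by edgeR (version 4.0.16, R version 4.3.3) with TMM factors and a term for group, by its quasi-likelihood test, and p-values were adjusted over all genes tested (Benjamini-Hochberg). Standard errors were derived from the F statistic. The filter corresponds to 52.6 to 75.9 counts per library. No molecular identifiers were used, so counts are of reads, not molecules. The fit was run on counts simulated from the Mock means, with 200 of 11189 genes changed. It called 61 of 67 genes changed 1.5-fold, 65 of 67 changed 2-fold and 66 of 66 changed 4-fold, with 3 false calls. The simulation changed far fewer genes than the 46.6% called in the data, so it does not show how the fit behaves under so wide a response.

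Named genes are the 10 receptors, tested ligands and partners, and, per other list, up to 4 genes in each direction past FDR 0.01 and 2-fold. Every other gene with values, among the other receptors, TRAF adaptors, death complex genes, proteases, markers and untested ligands, was chosen after its values were seen. Receptors and lists were chosen with earlier results of these data known. Alternatives were RLE factors, library totals, TMM without mitochondrial genes, no filter, filterByExpr, DESeq2 (version 1.42.0), limma-voom (version 3.58.1), robust estimation, the replicate number as a block and each library left out. Leaving out both Mock replicate 2 and GC7 replicate 3 was added after seeing the data. Some genes counted in the lists are not reported here by name.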

Additional observations from a re-analysis of the deposited data

Results flagged for a closer look

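In 6 of 48 groups of 4 libraries examined (the receptors and the named genes), 1 library stood apart, with a gap to its nearest neighbour of more than 0.829 of the whole range (Dixon's ratio). Chance gives about 1 in 20 such groups, or 2.4 here. Mock replicate 2 was the lowest Mock library for *Tnfrsf8* (ratio 0.896) and the highest for *Ltb* (0.893). Mock replicate 4 was the lowest Mock library for *Tnfrsf9* (0.833). GC7 replicate 3 was the lowest GC7 library for *Lta* (0.833) and the highest for *Tank* (0.920), and GC7 replicate 1 was the highest for *Tnfsf8* (0.884). Without Mock replicate 2 the log2 fold change of *Tnfrsf8* was -4.45.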

How the results depend on the processing

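Over 18 alternatives, 8 of the 9 tested receptors kept direction and side of the threshold in each; *Cd27* lost its call with library totals (log2 fold change -0.19) and in 4 of the 8 fits without 1 library (range -0.35 to -0.23). Library totals moved the median of all genes from 0.02 to 0.11. Receptors lower by more than 2-fold numbered 1 with library totals and 1 to 2 as single libraries were left out. Changed genes numbered 4 to 7 among other receptors and 4 to 7 in the ubiquitin and kinase relay as single libraries were left out, and 7 among TRAF adaptors without Mock replicate 2 and GC7 replicate 3. Calls over all genes also moved, from 4450 of 11271 without GC7 replicate 4 to 5743 of 11297 without Mock replicate 2. Without Mock replicate 2 and GC7 replicate 3 they were 6402 of 11228. *Tnfsf9* changed sign with library totals (0.029), without Mock replicate 3 (0.0049, the highest of the 8 fits without 1 library, the lowest being -0.17) and without Mock replicate 2 and GC7 replicate 3 (0.053), never past the threshold. The causes were not tested. When a library was left out, the filter asked for 3 libraries. Same-numbered libraries deviated from their group means with correlations of 0.31, -0.14, 0.21 and -0.21. Libraries with different numbers had correlations from -0.35 to 0.45. With 4 libraries per group these values cannot settle whether the numbers pair the libraries. With the replicate block, 6 receptors were lower and 2 higher, and no call of the receptors, tested ligands or genes named by rule changed; log2 fold changes were -4.36 for *Tnfrsf8*, -1.05 for *Tnfrsf4*, 1.68 for *Fas* and -0.29 for *Cd27*. Without the filter and with filterByExpr, changed genes numbered 8 and 9 among other receptors and 9 and 7 among ligands, with calls on *Eda2r* and *Tnfrsf11a* in both fits and on *Cd70* and *Tnfsf15* in the former, the latter not testing them. Over all genes these fits called 6717 of 28350 and 5925 of 14517. *Eda2r*, *Tnfrsf11a*, *Cd70*, *Tnfsf15*, *Tnfrsf25* and *Tnfsf18* did not pass the 3 CPM filter, and their fold changes rest on low Mock counts.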

Other observations

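Of the 11 other receptors of the superfamily below the filter, *Eda2r* had 0, 0, 5 and 3 counts in Mock and 62, 62, 70 and 65 in GC7 replicates 1 to 4, and *Tnfrsf11a*, which encodes RANK, had 2, 0, 1 and 1 counts in Mock and 28, 17, 11 and 18 in GC7 replicates 1 to 4. *Tnfrsf12a* had 43 to 82 counts per Mock library and 29 to 51 per GC7 library. *Cd40* and *Ltbr* had 0 to 4 counts in every library. In the fit without the filter, *Eda2r* (adjusted p = 8.0e-39, edgeR) and *Tnfrsf11a* (adjusted p = 1.5e-10, edgeR) were higher in GC7 libraries, as they were with filterByExpr (adjusted p = 8.7e-07 and 3.3e-05, edgeR), and *Tnfrsf12a* (adjusted p = 0.0228, edgeR), *Cd40* and *Ltbr* did not pass the test. These genes were picked after their values were seen. Adjusted p-values of the fit without the filter are not on the scale of the filtered fits.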
